A study of Mus musculus with 58 samples.

Results

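Collagens are extracellular matrix proteins built from 3 chains, and each chain is made from its own gene. The collagen chain genes described here were all rows of the count table whose Ensembl mouse gene ID belongs to a symbol made of Col, a number, the letter a and a second number. There were 44 such genes among 56953 rows, and each had at least 1 read in at least 1 library. The libraries were Smart-seq3 bulk RNA-seq of adipose stem cells (ASC) sorted by FACS from inguinal white adipose tissue (iWAT) of C57BL6/J mice. All 8 groups were sorted as CD45-/CD31-/CD34+ cells, which leaves out leukocytes and endothelial cells. ASC2 were the DPP4+ cells and ASC1 the DPP4- cells, DPP4 being a surface peptidase carried by interstitial progenitors.

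Control male ASC1 gave 7 libraries, ovariectomized female ASC1 3 libraries, and the other 6 groups (control male ASC2, castrated male ASC1 and ASC2, control female ASC1 and ASC2, ovariectomized female ASC2) 8 libraries each. Castration or ovariectomy was done at 4 weeks of age and tissue was taken at 10 weeks. Whether the controls had sham surgery was not given in the sources used here. The labels do not tie libraries to mice, so p-values measure the spread between libraries. They carry a replicate letter, A to H in all control libraries and I to P in all castrated and ovariectomized libraries. Differences between gonadectomized and control groups cannot be told apart from differences between these sets of letters. In sorted bulk samples, fewer cells of a type and less RNA per cell cannot be told apart.

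Fibrillar collagens (types I, III, V and others) form the tensile fibres of connective tissue, and type I is a trimer of the Col1a1 and Col1a2 products. Type IV chains form the sheet of the basement membrane, which surrounds each adipocyte, and type VI chains form beaded microfibrils that are abundant in fat. Fibril-associated collagens (FACIT), such as types XII, XIV and XVI, sit on the surface of fibrils, and multiplexins (types XV and XVIII) link basement membranes to the matrix around them.

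Library totals ran from 106566 to 1421547 reads with a median of 682423. Sex chromosome reads did not match the label in every library. In 26 of the 58 libraries the reads of sex chromosome genes (Xist, and 4 Y-linked genes) went against the sex label or held both kinds, and 13 of these held both, with at least 3 Y-linked and at least 20 Xist reads. None of the castrated male ASC2 or ovariectomized libraries was among the 26, and 7 of the 8 castrated male ASC1 libraries were. Of the castrated male ASC1 libraries, 6 held at least 20 Xist reads and fewer than 3 Y-linked reads. Of the 8 control female ASC1 libraries, 5 held at least 3 Y-linked reads and fewer than 20 Xist reads. Sult1e1 and C7, genes that the study names as enriched in male ASC, followed the labels of the controls, in the libraries among the 26 too. Sult1e1 lay at 22.7 to 154 CPM (counts scaled to a common library total) in the control male libraries and at 0 to 4.84 CPM in the control female libraries, and C7 at 122 to 1664 CPM and at 0 to 20.8 CPM. Sult1e1 was at 0 in every castrated and ovariectomized library, while C7 stood at 50.3 to 285 CPM in ovariectomized ASC1 and at no more than 14.4 CPM in the other gonadectomized groups. At least 3 reads of Tcf21, a transcription factor gene known from visceral fat and read in the study as a perigonadal depot gene, were found in 22 libraries, although all 58 are labelled as inguinal. Tbx15, known from subcutaneous fat, lay between 0 and 13.8 CPM in those 22 libraries. Sult1e1 and C7 cannot check the labels of the castrated and ovariectomized libraries. Groups are named below as their libraries are labelled. The 3 ovariectomized ASC1 libraries stood apart from the other 55. They had a median of 9698 detected genes, where the medians of the other groups ran from 13463 to 14019. Their median total was 256565 reads (188599 to 1114334), where the medians of the other groups ran from 620064 to 834032. Their fibroblast markers (Pdgfra, Dcn, Lum and Cd34) summed to 28913 to 36359 CPM against 2274 to 12846 in the others, and their proliferation markers (Mki67, Top2a, Ccnb1 and Cdk1) to 8.0 to 13.8 CPM against 91.4 to 797. ASC2 markers (Dpp4, Cd55, Arl4d and Pi16) summed to 509 to 5933 CPM in the ASC2 groups and to 16.6 to 148 CPM in the ASC1 groups other than ovariectomized ASC1, where they reached 242 to 418 CPM.

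Of the 44 collagen chain genes, 27 passed the filter of at least 5 reads in more than 3 libraries and were tested. These were 9 of 11 fibrillar chains, 5 of 6 basement membrane chains, 4 of 6 collagen VI chains, 3 of 9 FACIT chains, both multiplexins, 2 of 3 short-chain network chains (Col8a1 and Col8a2), the anchoring fibril chain Col7a1, and Col28a1. The other 17 had between 1 and 74 reads over all libraries. They included the cartilage chains Col2a1, Col9a1, Col9a2, Col9a3, Col10a1 and Col11a2, and all 4 transmembrane chains (Col13a1, Col17a1, Col23a1 and Col25a1). The remaining chains below the filter were Col4a6, Col6a4, Col6a5, Col19a1, Col20a1, Col22a1 and Col26a1. In 12 of the 27 genes every library held at least 5 reads.

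Levels of different chains were compared as CPM per kilobase of the main annotated transcript, averaged over the 55 libraries other than ovariectomized ASC1. Col3a1, the single chain of type III collagen, led with 850 ± 402 (SD, n = 55) CPM per kilobase. The type I chains followed with 563 ± 147 for Col1a2 and 451 ± 205 for Col1a1. Types I and III are the main fibrillar collagens of soft connective tissue. Col6a1 and Col6a2 stood at 364 ± 170 and 341 ± 171 CPM per kilobase, and the third type VI chain, Col6a3, at 41.3 ± 16.3. Col5a2, whose product nucleates fibrils together with type I, stood at 197 ± 84.1 and Col5a1 at 35.1. The basement membrane chains Col4a1 and Col4a2 stood at 91.0 ± 26.7 and 69.8 ± 24.4. The SDs of neighbours in this order overlap (Col1a2 with Col1a1, Col6a1 with Col6a2), so the order among neighbours is not set by these values.

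**Figure D1:**
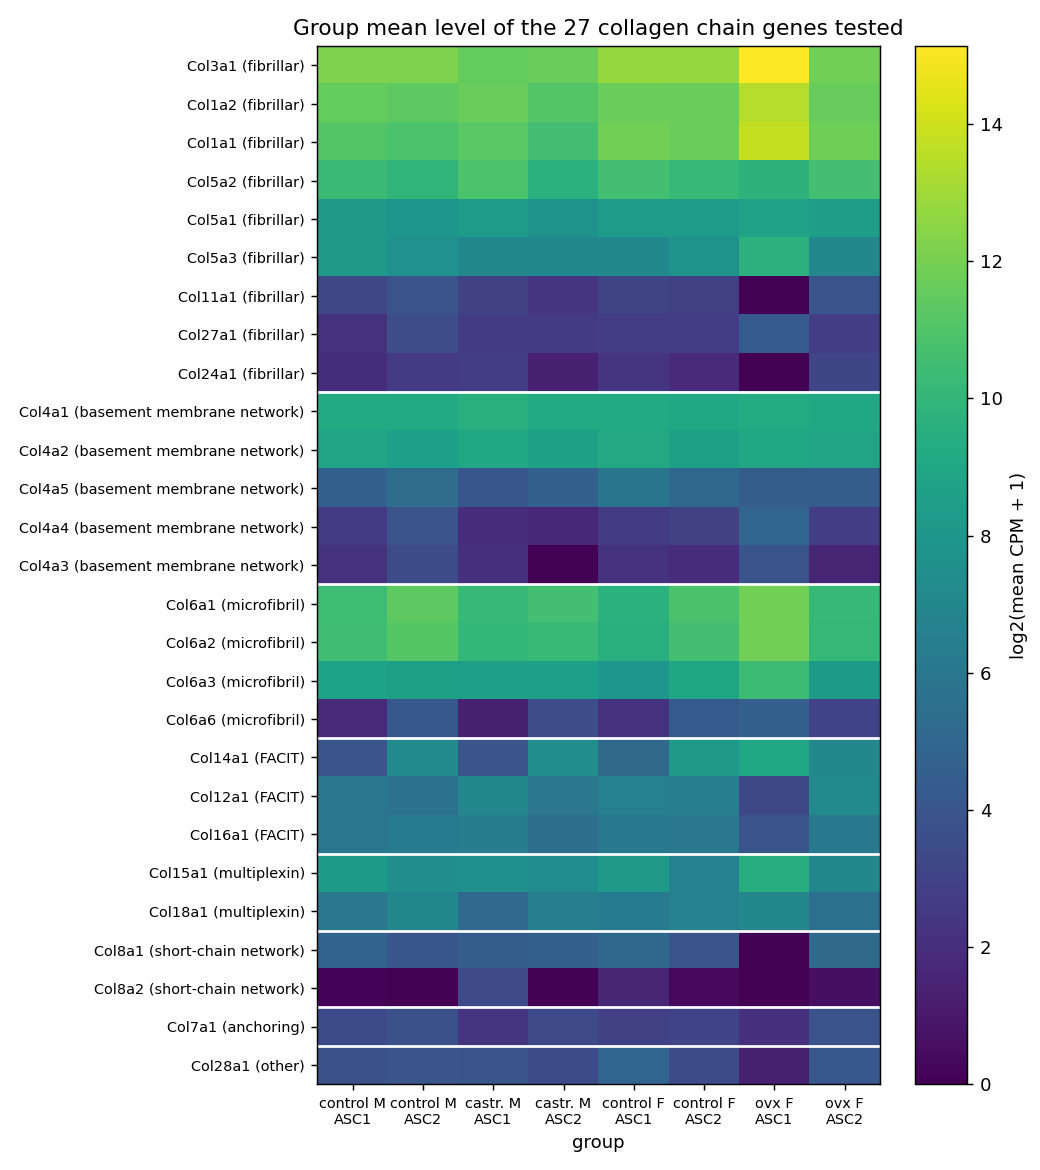
Group mean level of the 27 tested collagen chain genes, as log2 of the mean CPM plus 1 (colour scale), with genes in rows (class in parentheses) and the 8 groups in columns. Col3a1 ranged from a mean of 3026 CPM in castrated male ASC1 to 6889 CPM in control female ASC1 among the 7 groups other than ovariectomized ASC1, where it was 36043 CPM.

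Some of these chains assemble into one molecule, and their ratios were taken per kilobase in each of the 55 libraries. The ratio of Col6a1 to Col6a2 ran from 0.698 to 1.89 (median 1.07), and that of Col4a1 to Col4a2 from 0.762 to 1.92 (median 1.41). The ratio of Col1a1 to Col1a2 varied more, from 0.209 to 1.34 (median 0.767), with group medians from 0.600 in control male ASC1 to 1.01 in control female ASC1 outside ovariectomized ASC1. The products of this last pair join in type I collagen. The ratio of Col5a1 to Col5a2 ran from 0.0815 to 0.455 (median 0.182), and it was 0.255, 0.429 and 0.496 in the 3 ovariectomized ASC1 libraries.

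The genes of some of these chains lie side by side. Col4a1 and Col4a2 start 21 bases apart on opposite strands of chromosome 8, and Col4a3 and Col4a4, chains of the specialised basement membranes of kidney and other organs, start 72 bases apart on opposite strands of chromosome 1 (Gencode vM21, GRCm38). The annotated Col4a1 and Col4a2 genes overlap, and reads of that overlap could be assigned to either gene. Col4a3 and Col4a4 do not overlap, with 71 bases between them. Col6a1 and Col6a2 lie on the same strand of chromosome 10 with 85161 bases between them. The start regions of these pairs are shown because their members are compared below. Each window is RefSeq's (GRCm38.p6), 250 bases before to 50 after the start, 5′ to 3′ on the strand of the gene. Capitals mark matches on either strand to 3 promoter motifs. These are the letters CCAAT of the CAAT box bound by nuclear factor Y, the letters TATAAA of the TATA box, and the letters GGGCGG of the GC box bound by Sp1.
Col4a1, chr8:11312777-11313076, minus strand: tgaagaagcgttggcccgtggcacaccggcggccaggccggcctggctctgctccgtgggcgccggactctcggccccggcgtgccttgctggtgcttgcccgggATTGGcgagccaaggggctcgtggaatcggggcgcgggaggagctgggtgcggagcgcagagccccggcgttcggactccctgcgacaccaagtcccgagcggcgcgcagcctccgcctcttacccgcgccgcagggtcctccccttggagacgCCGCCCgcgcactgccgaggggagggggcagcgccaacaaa
Col4a2, chr8:11312555-11312854, plus strand: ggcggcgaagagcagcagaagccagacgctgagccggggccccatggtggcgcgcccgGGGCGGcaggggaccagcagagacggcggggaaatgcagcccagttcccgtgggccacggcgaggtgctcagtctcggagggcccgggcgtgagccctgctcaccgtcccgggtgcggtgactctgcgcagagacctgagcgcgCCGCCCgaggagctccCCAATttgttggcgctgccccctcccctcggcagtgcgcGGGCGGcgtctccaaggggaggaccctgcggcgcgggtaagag
Col4a4, chr1:82586800-82587099, minus strand: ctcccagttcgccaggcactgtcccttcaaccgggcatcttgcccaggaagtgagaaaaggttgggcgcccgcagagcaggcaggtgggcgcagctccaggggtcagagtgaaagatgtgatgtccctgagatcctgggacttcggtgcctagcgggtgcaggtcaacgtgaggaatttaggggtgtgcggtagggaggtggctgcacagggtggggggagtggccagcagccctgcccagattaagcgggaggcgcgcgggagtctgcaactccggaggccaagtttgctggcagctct
Col6a1, chr10:76725995-76726294, minus strand: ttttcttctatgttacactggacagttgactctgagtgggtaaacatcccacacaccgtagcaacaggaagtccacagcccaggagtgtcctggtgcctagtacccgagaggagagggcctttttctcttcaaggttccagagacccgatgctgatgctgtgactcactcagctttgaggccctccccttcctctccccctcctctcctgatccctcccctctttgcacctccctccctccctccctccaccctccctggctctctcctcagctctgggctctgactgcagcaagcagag
Col6a2, chr10:76623355-76623654, minus strand: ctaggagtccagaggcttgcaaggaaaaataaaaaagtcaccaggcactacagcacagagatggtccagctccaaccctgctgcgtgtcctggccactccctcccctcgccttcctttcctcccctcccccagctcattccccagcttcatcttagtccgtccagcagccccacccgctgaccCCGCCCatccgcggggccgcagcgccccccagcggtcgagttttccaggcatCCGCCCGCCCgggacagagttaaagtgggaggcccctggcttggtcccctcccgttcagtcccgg
The Col4a1 and Col4a2 windows share 78 bases, and the start of Col4a3 lies within the Col4a4 window. The Col6a2 window shown held 3 GGGCGG matches, of which a pair overlap. Another RefSeq window of Col6a2, chr10:76623581-76623880, is not shown and held 1. The Col6a1 window held none of the 3 motifs. RefSeq windows were matched for 35 of the 44 genes (38 windows). GGGCGG was found in 23 of the 38 windows (60.5%) and in 35.7% of 32851 windows of all genes, CCAAT in 34.2% and 37.4%, and TATAAA in 13.2% and 13.6%. AGAACA, the half-site bound by androgen and glucocorticoid receptors, was found in 2 of the 38 windows (5.26%) and in 19.0% of all windows. These shares are descriptions of letters in the windows and carry no test.

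The share of all reads that came from the 44 genes was 1.72% ± 0.414 (SD, n = 55) outside ovariectomized ASC1. It was 1.67% ± 0.180 in control male ASC1 (n = 7) and 1.73% ± 0.236 in control male ASC2 (n = 8). Control females gave 2.04% ± 0.441 (ASC1) and 1.98% ± 0.473 (ASC2), with n = 8 each. The 2 populations of a sex thus differed by less than their spread. The share was lowest in castrated male ASC2, at 1.32% ± 0.341, and it was 1.60% ± 0.0735 in castrated male ASC1 (n = 8 each). In ovariectomized ASC2 it was 1.67% ± 0.540 (n = 8), and in the 3 ovariectomized ASC1 libraries it was 4.5%, 6.75% and 7.61%, above every other library. Collagen VI took 0.526% ± 0.110 of reads in control male ASC2 against 0.332% ± 0.106 in control male ASC1, and 0.372% ± 0.0884 against 0.190% ± 0.0652 in the females. Basement membrane chains took between 0.0963% and 0.131% of reads on average in each of the 8 groups.

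**Figure D2:**
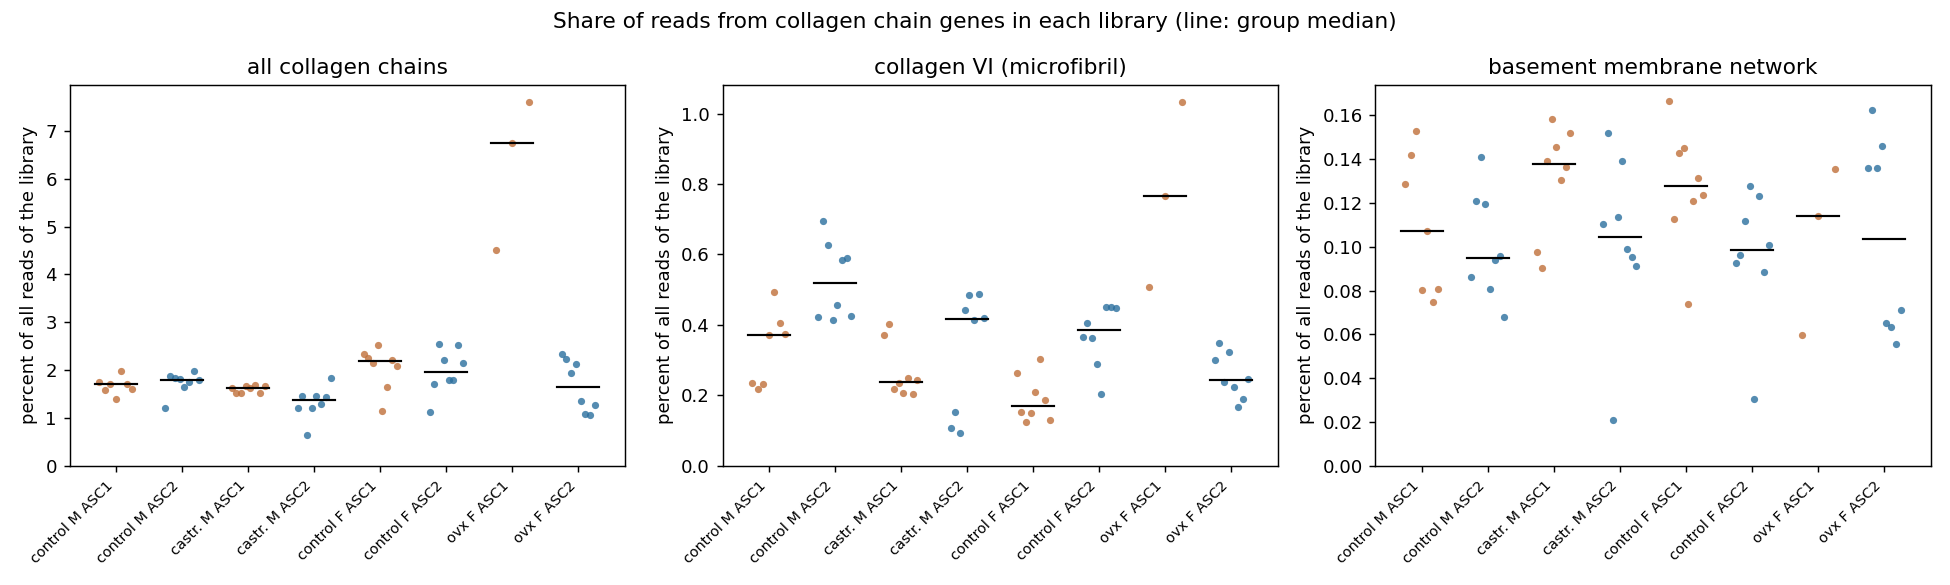
Percent of all reads of a library that came from all collagen chain genes (left), collagen VI (middle) and basement membrane chains (right), 1 point per library, ASC1 in orange and ASC2 in blue, with a line at the group median. The 3 ovariectomized ASC1 libraries lie at 4.5% to 7.61% for all chains, above the other 55 libraries, which lie between 0.632% and 2.54%.

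The first comparison asked how ASC2 and ASC1 differ in collagen genes within each sex and treatment. Each gene was tested with edgeR's quasi-likelihood test over all 12464 genes that passed the filter. Values below are log2 fold changes with their standard error (SE) and a Benjamini-Hochberg adjusted p, and a gene was called at an adjusted p under 0.05. Among control males, 5 of the 27 chains were higher in ASC2 and 0 lower. Over all genes 12.2% were called, 6.88% higher and 5.3% lower. Among control females 5 chains were higher and 2 lower, against 6.11% of all genes called, 3.54% higher and 2.58% lower. Among castrated males 3 were higher and 4 lower, against 9.09% of all genes called, 4.47% higher and 4.62% lower. The median log2 fold change of the 27 chains was 0.17 in control males, -0.07 in control females and -0.23 in castrated males, beside -0.01, 0.00 and 0.01 over all genes. These medians were the same with chains at 0 set to their bound.

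Col14a1, the FACIT chain of type XIV collagen, was higher in ASC2 in each of these 3 comparisons. In control male ASC1 it lay between 3.47 and 33.1 CPM (median 14.8), and in control male ASC2 between 64.9 and 341 CPM (median 122). In control females it ran from 5.35 to 63.9 CPM (median 43.0) in ASC1 and from 66.7 to 531 CPM (median 263) in ASC2. In castrated males it ran from 8.94 to 35.9 CPM (median 13.1) in ASC1 and from 65.3 to 385 CPM (median 128) in ASC2. No ASC1 library of these 3 groups reached the lowest ASC2 library of its own sex and treatment. The log2 fold change was 3.35 ± 0.47 in control males (adjusted p = 5.52e-07), 2.96 ± 0.41 in control females (adjusted p = 4.03e-07) and 3.63 ± 0.45 in castrated males (adjusted p = 4.15e-08), all by edgeR. Without the libraries that held at least 3 Tcf21 reads these were 3.75, 4.99 and 4.07, each still called.

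Collagen VI chains, the microfibril formers of fat stroma, were among the higher chains. In control females 4 of the 4 tested chains were higher in ASC2, with a median log2 fold change of 1.07, and in control males 2 of 4. Col6a1 ran from 949 to 1855 CPM (median 1516) in control male ASC1 and from 2234 to 3231 CPM (median 2563) in control male ASC2, which do not overlap. In control females it ran from 534 to 1198 CPM (median 795) in ASC1 and from 1102 to 2310 CPM (median 1767) in ASC2, which do. Its log2 fold change was 0.91 ± 0.24 in control males (edgeR adjusted p = 0.00825) and 1.09 ± 0.24 in control females (edgeR adjusted p = 0.00123). Col6a2 and Col6a3 were higher in control female ASC2 by 1.05 ± 0.27 and 1.01 ± 0.27 (edgeR adjusted p = 0.00714 and 0.0106). Col6a6, a chain related to Col6a3 and expressed at a lower level, averaged 2.67 ± 2.75 CPM in control male ASC1 (n = 7) and 17.2 ± 10.3 CPM in control male ASC2 (n = 8). It was higher in ASC2 by 2.55 ± 0.61 in control males, 2.40 ± 0.60 in control females and 2.32 ± 0.67 in castrated males (edgeR adjusted p = 0.003, 0.00633 and 0.0178). Without the libraries with Tcf21 reads, Col6a1 differed by 0.68 in control males and by 0.72 in control females and was called in neither, and Col6a2 and Col6a3 by 0.69 and 0.63 in control females, not called. Col6a6 differed by 2.54, 3.20 and 1.33 with fewer libraries and missed the threshold in each (edgeR adjusted p = 0.0505, 0.127 and 0.864). Without libraries whose sex chromosome reads went against or mixed the label, Col6a2 and Col6a3 differed by 0.53 and 0.07 in control females. Without libraries holding both Y-linked and Xist reads they differed by 1.12 and 0.83, and neither was called under either setting. The former setting left 3 control female ASC1 libraries with fewer than 3 Tcf21 reads and 2 ASC2 libraries with at least 3.

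Both multiplexins were called, in different comparisons. Col18a1, whose C-terminal fragment is endostatin, averaged 63.9 ± 12.4 CPM in control male ASC1 and 125 ± 36.9 CPM in control male ASC2 (log2 fold change 0.95 ± 0.30, edgeR adjusted p = 0.028). In control males the libraries lay at 43.3 to 73.2 CPM in ASC1 and at 82.5 to 184 CPM in ASC2, with no overlap. Without control male ASC2 library A the log2 fold change was 0.85 (edgeR adjusted p = 0.0591). Col18a1 also lost this call without libraries holding both Y-linked and Xist reads and with the replicate letter as a block. The edgeR adjusted p reached up to 0.102 in these settings. In castrated males Col18a1 averaged 34.5 ± 29.8 CPM in ASC1 and 87.9 ± 29.9 CPM in ASC2 (1.30 ± 0.31, edgeR adjusted p = 0.00308). This last difference was 0.28 and not called without the libraries with Tcf21 reads, which leaves 2 castrated ASC1 libraries. Col15a1, which the study used as an ASC1 marker, was lower in control female ASC2, with 17.4 to 167 CPM (median 98.5) against 164 to 439 CPM (median 283) in ASC1 (-1.54 ± 0.37, edgeR adjusted p = 0.0042). It was -1.21 without libraries with Tcf21 reads and -1.19 without those holding both Y-linked and Xist reads. Without those whose reads went against or mixed the label it was -0.40, and it was not called in any of these. The last setting set ASC2 libraries with at least 3 Tcf21 reads against ASC1 libraries with fewer. In control males Col15a1 averaged 304 ± 113 CPM in ASC1 and 175 ± 36.1 CPM in ASC2 and was not called.

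In control females 0 of the 9 fibrillar chains were called, and in control males 1, Col27a1, which averaged 3.41 ± 2.20 CPM in ASC1 and 10.7 ± 6.81 CPM in ASC2. Col27a1 was named after its values were seen. Its call (log2 fold change 1.71) was lost under 4 of 12 alternatives, with an edgeR adjusted p of up to 0.473. One of these left out the libraries with Tcf21 reads. In castrated males Col5a2 and Col1a2 were lower in ASC2. Col5a2 ran from 1201 to 2316 CPM (median 1973) in castrated ASC1 and from 171 to 1270 CPM (median 855) in castrated ASC2 (-1.15 ± 0.27, edgeR adjusted p = 0.00229). Col1a2 averaged 3344 ± 449 CPM and 2210 ± 605 CPM (-0.60 ± 0.18, edgeR adjusted p = 0.0253). Neither was called without the libraries with Tcf21 reads, where the differences were -0.77 and -0.31.

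Chains near the detection limit were also called in these comparisons and were named after their values were seen. Col8a2, a network collagen known from the cornea and vessels, had 51 reads in castrated male ASC1 and 0 in castrated male ASC2, at least 17.1-fold lower in ASC2 when 3 reads over the group are taken as the floor (edgeR adjusted p = 5.46e-05). Those 51 reads all lay in castrated ASC1 libraries with at least 3 Tcf21 reads. Col4a3 had 19 reads in castrated ASC1 and 0 in castrated ASC2, at least 6.20-fold lower (edgeR adjusted p = 0.0403). The Col4a3 call was lost under 3 of 7 alternatives, with an edgeR adjusted p of up to 0.0635. Col28a1, a short collagen known from nerve, averaged 29.5 ± 18.4 CPM in control female ASC1 and 10.5 ± 6.95 CPM in control female ASC2 (-1.46 ± 0.40, edgeR adjusted p = 0.0155). Without libraries whose sex chromosome reads went against or mixed the label it differed by 1.03 in the other direction and was not called. In control females this setting set ASC2 libraries with at least 3 Tcf21 reads against ASC1 libraries with fewer.

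Acta2 and Tagln, which carry most of the sum of the mural cell markers (Kcnj8, Abcc9, Rgs5, Higd1b, Acta2, Tagln and Myh11), had lower medians in ASC2. Median Acta2 was 744 and 354 CPM in control male ASC1 and ASC2, 964 and 375 CPM in control females and 1213 and 499 CPM in castrated males. Other markers of the list went the other way in part, with median Kcnj8 at 10.6 and 22.1 CPM in control female ASC1 and ASC2 and at 7.26 and 12.4 CPM in castrated males, and median Rgs5 at 3.98 and 8.48 CPM in control males. All 7 were detected in each ASC1 group other than ovariectomized ASC1, and 7 of 7 in each ASC2 group except control male ASC2, where Higd1b was without a read. The sum ran from 822 to 1255 CPM in control male ASC1 and from 103 to 1160 CPM in control male ASC2. It ran from 1040 to 2486 CPM in control female ASC1 and from 225 to 2449 CPM in control female ASC2. In castrated males it ran from 713 to 2467 CPM in ASC1 and from 225 to 1290 CPM in ASC2. The part of these cells in the collagen differences was not tested.

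**Figure D3:**
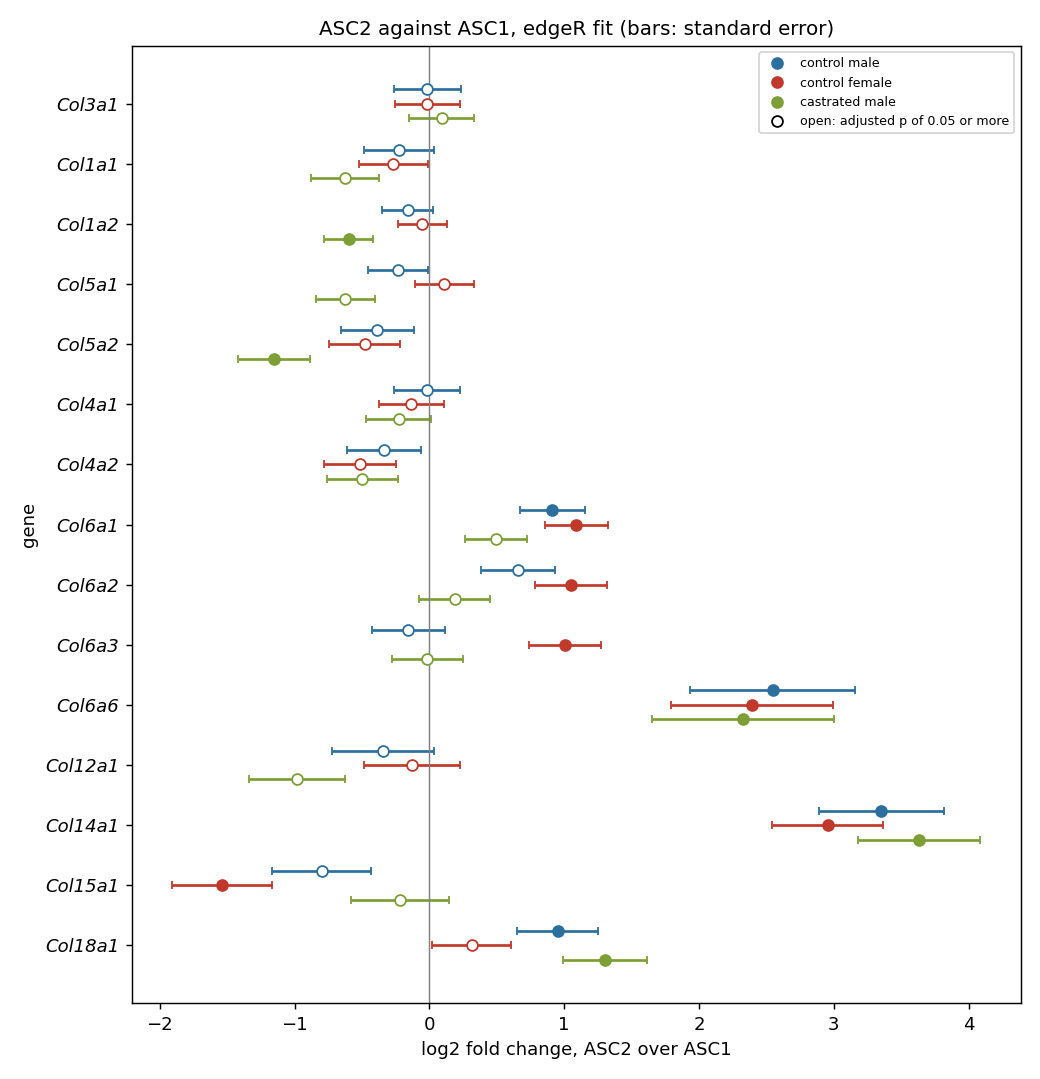
Log2 fold change of ASC2 against ASC1 for collagen chain genes in control males, control females and castrated males. Points are edgeR estimates, bars are SE, and filled points have an adjusted p under 0.05. Col14a1 lies at 3.35, 2.96 and 3.63 in control males, control females and castrated males. Ovariectomized females are not plotted.

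The population difference itself was compared between control males and control females. By edgeR 0 of the 27 chains differed, with 5 at an unadjusted p under 0.05 and 0 by DESeq2, against 0.128% of all genes called. A sex difference in the population contrast was thus not shown for any chain, collagen VI included.

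In ovariectomized females the comparison rests on 3 ASC1 libraries that stand apart. Of the 27 chains 6 were higher in ASC2 and 12 lower, against 35.4% of all genes called, 22.5% higher and 12.9% lower. Chains had a median log2 fold change of -1.28 and all genes one of 0.37, so that chains lay lower in ASC2 than the bulk of genes. Col3a1 was 29048, 35531 and 43551 CPM in the 3 ASC1 libraries and 2185 to 5495 CPM (median 4101) in ASC2 (-3.25 ± 0.30, edgeR adjusted p = 3.71e-13). Col14a1 was lower in ASC2, at 55.7 to 279 CPM (median 108) against 483, 497 and 564 CPM in ASC1 (-2.03 ± 0.47, edgeR adjusted p = 0.000512), the opposite direction to the other 3 population comparisons. Leaving out 1 of the 3 ASC1 libraries left 15 to 18 chains called. Without library L the calls of Col11a1, Col24a1, Col27a1 and Col28a1 were lost. Col11a1 and Col24a1 were then at least 1.80-fold and 1.02-fold higher in ASC2, and Col27a1 differed by -1.54 on the log2 scale. Col28a1 had 1 read in the 3 ASC1 libraries together, so no fold is given for it. Without library N the call of Col4a4 was lost, at -0.94.

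Male and female control libraries were compared within each population. In control ASC1 edgeR called 0 of 27 chains, with 10 at an unadjusted p under 0.05 and 0 by DESeq2, against 0.289% of all genes called. The median log2 fold change of the chains, male over female, was -0.26 in ASC1, beside 0.01 over all genes. In control ASC2 1 chain was lower in males and 0 higher, against 6.5% of all genes called, 3.63% higher and 2.87% lower. This chain was Col1a1, which ran from 497 to 2459 CPM (median 2067) in control male ASC2 and from 1239 to 5474 CPM (median 3012) in control female ASC2. The groups overlap, and the log2 fold change was -0.79 ± 0.25 (edgeR adjusted p = 0.0476). The lowest value, 497 CPM, belongs to control male ASC2 library A. Without that library the difference was -0.64 and 0 chains were called. Without control male ASC2 library D it was -0.84 (edgeR adjusted p = 0.0559), with Col14a1 called in its place, and without libraries with Tcf21 reads it was -0.47 and not called. The difference was -1.71 and still called without libraries whose sex chromosome reads went against or mixed the label. That setting kept 4 control male and 2 control female ASC2 libraries. The 2 female libraries were those with at least 3 Tcf21 reads, and control male ASC2 had no such library.

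The next question was whether castration, which removes testicular androgen, went with a difference in collagen genes. In ASC2, 4 of 27 chains were lower in castrated males and 0 higher, against 6.96% of all genes called, 2.65% higher and 4.32% lower. The median log2 fold change was -0.41 for the chains, of which 21 were below 0, and 0.00 over all genes. The 4 were a pair of basement membrane chains, Col4a3 and Col4a4, and a pair of collagen VI chains, Col6a1 and Col6a2.

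Col4a4 ran from 5.49 to 17.8 CPM (median 13.5) in control male ASC2 and from 0 to 7.26 CPM (median 1.65) in castrated male ASC2. Only the lowest control library, C, lay within the castrated range. The log2 fold change was -2.57 ± 0.61 (edgeR adjusted p = 0.00468), and Col4a4, named after its values were seen, stayed called under each of the 11 alternatives tried for it. Its neighbour Col4a3, whose start lies within the Col4a4 window printed above, had 41 reads in control and 0 in castrated male ASC2, at least 18.3-fold lower (edgeR adjusted p = 0.00575). Most of the control reads came from library D, where Col4a3 stood at 69.2 CPM, and without that library it was at least 2.71-fold lower in castrated males and not called (edgeR adjusted p = 0.125). Col4a5, the partner of both in the specialised network, averaged 40.8 ± 14.2 CPM in control and 25.1 ± 20.6 CPM in castrated male ASC2 (n = 8 each) and was not called.

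Col6a1 ran from 2234 to 3231 CPM (median 2563) in control male ASC2 and from 558 to 2444 CPM (median 1974) in castrated male ASC2 (-0.74 ± 0.23, edgeR adjusted p = 0.0406). Col6a2 ran from 1348 to 3624 CPM (median 2186) and from 346 to 1939 CPM (median 1376) in the same groups (-0.93 ± 0.26, edgeR adjusted p = 0.0221). Both ranges overlap between the groups. Castrated male ASC2 library K held low levels of many chains, with Col4a1 at 133 CPM against 540 to 916 CPM in the other 7 libraries, and its proliferation markers summed to 91.4 CPM. Without K and the similar control female ASC2 library E, the differences were -0.58 for Col6a1 and -0.76 for Col6a2 and neither was called, which left 2 called chains. Without control male ASC2 library D, Col6a1 differed by -0.73 (edgeR adjusted p = 0.071). Without libraries with Tcf21 reads they were -0.47 and -0.70, and neither was called.

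In ASC1, 1 chain was higher in castrated males and 0 lower, against 2.36% of all genes called, 1.06% higher and 1.3% lower. This was Col8a2, named after its values were seen, with 51 reads in castrated and 1 read in control male ASC1 (log2 fold change 4.76 ± 0.89, edgeR adjusted p = 0.000909). The ratio was 55.7 with a counting interval of 9.55 to 2241. All of its reads in castrated ASC1 lay in the 6 libraries that held Tcf21 reads, at 6.66 to 20.9 CPM, and both other libraries had 0. Mesothelial markers (Msln, Upk3b and Wt1) summed to 55.9 to 103 CPM in the same 6 libraries and to 0 to 2.55 CPM in the other 2, and to 0 to 32.9 CPM in control male ASC1, with all 3 detected in both groups. The part of these cells was not tested. Without libraries with Tcf21 reads 0 chains were called. The median log2 fold change of the chains was -0.07, beside -0.01 over all genes. Of the 8 castrated male ASC1 libraries, 7 held sex chromosome reads that went against or mixed the label. Leaving these out kept 1, so this comparison has no value without them.

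By edgeR 0 chains showed a castration effect that differed between ASC2 and ASC1, with 6 at an unadjusted p under 0.05 and 1 by DESeq2, against 2.41% of all genes called. The fall of Col4a4, Col6a1 and Col6a2 in ASC2 is thus not shown to be particular to that population.

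Ovariectomy removes ovarian estrogen and progesterone. In ASC2, 2 of 27 chains were lower in ovariectomized females and 0 higher, against 2.09% of all genes called, 0.65% higher and 1.44% lower, and 12 chains had an unadjusted p under 0.05. The median log2 fold change was 0.01 for the chains and 0.00 over all genes. Col18a1 ran from 36.6 to 158 CPM (median 110) in control female ASC2 and from 18.9 to 68.5 CPM (median 41.1) in ovariectomized ASC2 (-1.25 ± 0.31, edgeR adjusted p = 0.0155). Col3a1 ran from 2163 to 11022 CPM (median 6881) and from 2185 to 5495 CPM (median 4101) in the same groups (-0.85 ± 0.24, edgeR adjusted p = 0.0434). Both pairs of ranges overlap. The mural marker sum had a median of 2918 CPM in ovariectomized and 580 CPM in control female ASC2, with all 7 detected in both, and the epithelial sum (Epcam, Krt18, Krt8 and Krt14) medians of 229.7 and 15.8 CPM (9.88 to 1028 and 6.37 to 38.0 CPM), with Krt14 without a read in the control libraries. The part of these cells was not tested. Without libraries with Tcf21 reads Col18a1 differed by -0.96 and Col3a1 by -1.23, with edgeR adjusted p of 0.0595 and 0.062. Without control female ASC2 library E and castrated male ASC2 library K, Col18a1 alone was called.

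Castration and ovariectomy were set against each other in ASC2. By edgeR 0 chains differed, with 6 at an unadjusted p under 0.05 and 0 by DESeq2, against 0.602% of all genes called.

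**Figure D4:**
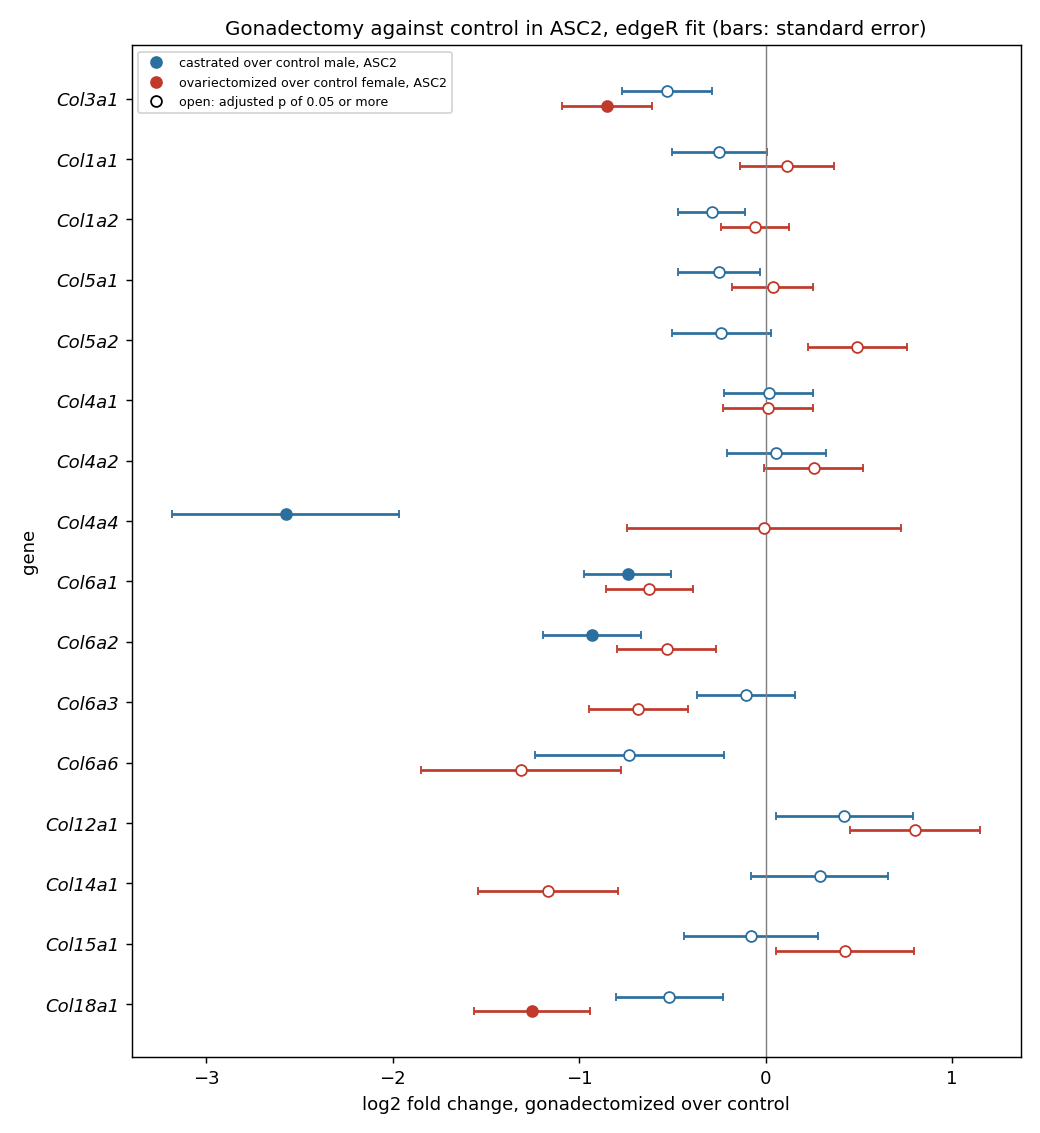
Log2 fold change of castrated against control male ASC2 and of ovariectomized against control female ASC2 for collagen chain genes; points are edgeR estimates, bars are SE, and filled points have an adjusted p under 0.05. Col4a4 lies at -2.57 for castration, and Col18a1 and Col3a1 at -1.25 and -0.85 for ovariectomy.

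In ovariectomized ASC1, 12 of 27 chains were higher and 4 lower than in control female ASC1, against 34.8% of all genes called, 12.7% higher and 22.1% lower. Chains had a median log2 fold change of 0.68 and all genes one of -0.34. The chains therefore lay above the shift of the bulk of genes. For 6 chains all 3 libraries lay above the other 55, and for 0 chains did all 3 lie below. The 6 were the fibrillar chains Col3a1, Col1a2, Col1a1 and Col5a3, the collagen VI chain Col6a3 and the multiplexin Col15a1. The share of all genes that lay above or below the other 55 was not taken. The count of 6 is thus not shown to be particular to collagen chains.

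Col1a1 was 8567, 16069 and 16848 CPM in the 3 libraries and at most 5849 CPM in the others, and Col1a2 was 9430, 11815 and 12901 CPM against at most 4260. Against control female ASC1 the log2 fold change was 1.83 ± 0.32 for Col1a1, 1.75 ± 0.23 for Col1a2 and 2.39 ± 0.30 for Col3a1 (edgeR adjusted p = 7.51e-06, 1.58e-08 and 5.28e-09). Col14a1 was 3.81 ± 0.49 higher (edgeR adjusted p = 7.04e-09). Col6a1, Col6a2 and Col6a3 were higher by 2.27 ± 0.29, 2.37 ± 0.33 and 2.43 ± 0.33, and Col5a3 by 2.7 ± 0.40. The basement membrane chains Col4a1 and Col4a2, at 634 ± 222 and 531 ± 214 CPM, lay between the means of the other groups and were not called. Leaving out 1 of the 3 libraries left 14 or 15 chains called. The calls lost were those of Col15a1 (1.13 without library N, 1.09 without P), Col6a6 (2.12 without N, 1.01 without P), Col27a1 (1.00 without L) and Col4a4 (1.08 without N).

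The 4 lower chains were Col8a1, Col28a1, Col12a1 and Col16a1. Col8a1, a network collagen of vessels, had 0 reads in the 3 libraries and 152 reads in control female ASC1, at least 13.9-fold lower (edgeR adjusted p = 0.000259). Col12a1, a FACIT chain of loaded tissues, was 8.79 ± 12.4 CPM (n = 3) against 102 ± 56.6 CPM (n = 8) (-3.74 ± 0.80, edgeR adjusted p = 0.000189). Col16a1 was 14.1 ± 1.82 CPM against 67.3 ± 31.4 CPM (-2.22 ± 0.57, edgeR adjusted p = 0.00159). Mural markers summed to 180 to 335 CPM in the 3 libraries against 1040 to 2486 CPM in control female ASC1, with Higd1b without a read. The lower sum came from Acta2 (18.6 to 73.4 CPM against 665 to 1434) and Tagln (18.6 to 44.6 CPM against 307 to 1089). The pericyte markers Kcnj8 and Abcc9 lay above every other library, at 70.9 to 110 CPM against 0 to 58.6 and at 43.3 to 115 CPM against 0 to 17.4. All 4 epithelial markers (Epcam, Krt18, Krt8 and Krt14) were without a read in the 3 libraries. The part of the difference in fibroblast, mural and proliferation markers in these collagen values was not tested.

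**Figure D5:**
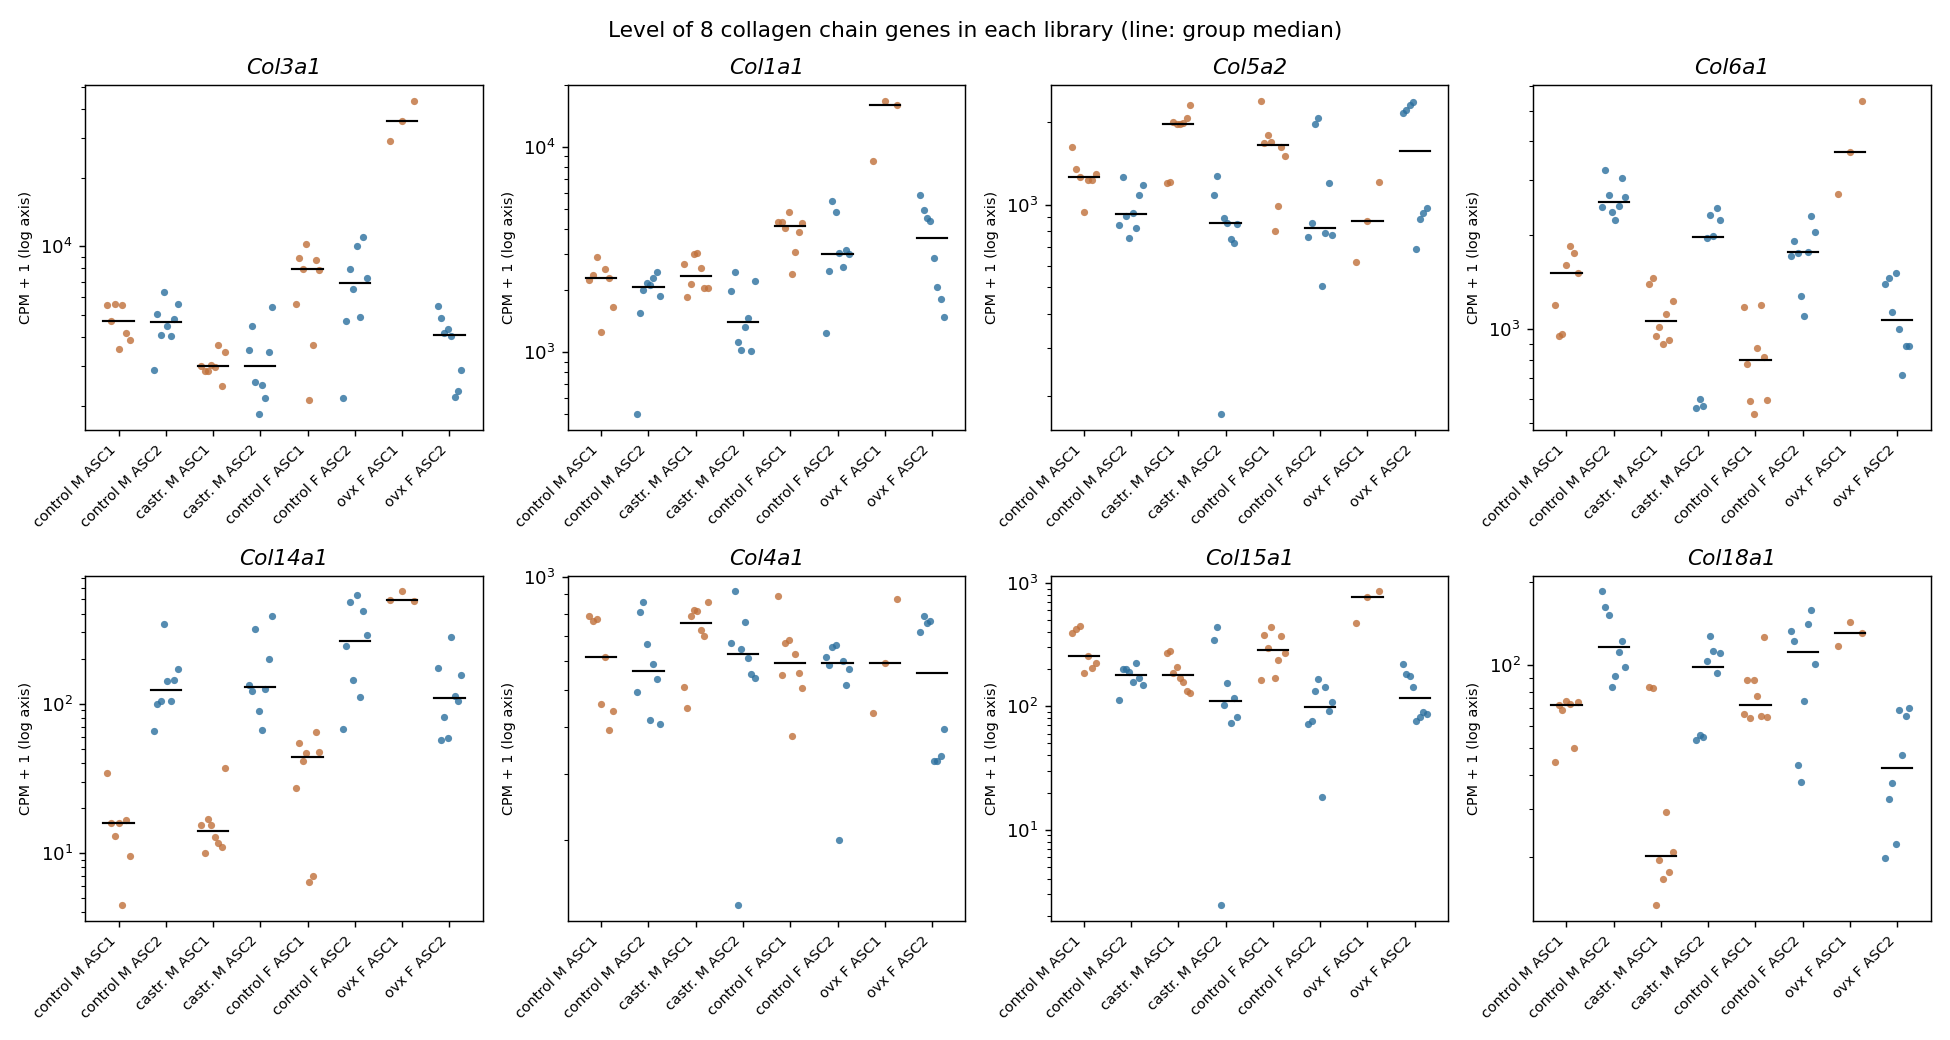
Level of 8 collagen chain genes in each library, as CPM plus 1 on a log axis, with 1 point per library, ASC1 in orange, ASC2 in blue and a line at the group median. Col14a1 lies at 64.9 to 531 CPM in the ASC2 libraries of control and castrated mice, at 3.47 to 63.9 CPM in their ASC1 libraries, and at 483 to 564 CPM in the 3 ovariectomized ASC1 libraries.

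Within groups, several chains followed the reads of Tcf21. This was seen after the values were known and is given without a test. In ovariectomized ASC2, 4 libraries held 20 to 53 Tcf21 reads and the other 4 held 0, and Tbx15 lay at 0 to 8.38 CPM in the former and 13.7 to 34.6 CPM in the latter. The ranges of 19 of the 27 chains did not overlap between these 4 and 4 libraries, 16 higher and 3 lower with Tcf21 reads. Over all genes 18.9% did not overlap, 11.9% higher and 7% lower. Col5a2 was 2164 to 2369 CPM with Tcf21 reads and 687 to 968 CPM without. Col1a1 was 4339 to 5849 CPM and 1490 to 2892 CPM, and Col4a1 715 to 788 CPM and 323 to 394 CPM. These 3 chains were higher where Tcf21 was read. The 3 chains in the other direction were Col18a1, at 18.9 to 36.1 CPM with and 46.2 to 68.5 CPM without, Col7a1, the anchoring fibril chain, at 1.65 to 4.80 CPM and 19.2 to 32.2 CPM, and Col5a3, at 56.0 to 118 CPM and 128 to 188 CPM.

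Mesothelial markers summed to 21.4 to 66.2 CPM in the 4 libraries with Tcf21 reads and to 0 to 8.57 CPM in the other 4, and epithelial markers to 9.88 to 27.8 and 432 to 1028 CPM. The part of these cells was not tested.

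Other groups were split in part of these chains. In castrated male ASC1, Col5a2 was 1965 to 2316 CPM in the 6 libraries with Tcf21 reads and 1201 to 1211 CPM in the 2 without. Col18a1 was 12.4 to 28.3 CPM and 81.7 to 82.6 CPM, and Col5a3 43.2 to 96.8 CPM and 305 to 318 CPM, in the same libraries. In control female ASC2, Col5a2 was 1967 to 2068 CPM in the 2 libraries with Tcf21 reads and 505 to 1203 CPM in the other 6, and Col18a1 was 36.6 to 42.3 CPM and 72.9 to 158 CPM. In castrated male ASC2, Col5a2 was 1087 to 1270 CPM in the 2 libraries with Tcf21 reads and 171 to 894 CPM in the other 6, and the Col18a1 ranges overlapped. In control male ASC1 and control female ASC1 the ranges of both chains overlapped, while Col4a1 was 762 to 787 CPM in the 3 control male ASC1 libraries with Tcf21 reads and 391 to 613 CPM in the 4 without. Some chains went the other way between groups. Col6a1 was higher with Tcf21 reads in ovariectomized ASC2 (1136 to 1513 against 715 to 1004 CPM) and lower in control male ASC1 (949 to 1194 against 1516 to 1855 CPM). Col6a3, Col12a1 and Col15a1 also differed in direction between groups, and Col7a1 ranges overlapped in the other 5 groups with such libraries and Col1a1 ranges in 4 of these 5. Col14a1 ranges overlapped in each of these groups but control female ASC1, where they lay at 39.99 to 63.9 CPM with and at 5.35 to 26.2 CPM without Tcf21 reads. The groups hold different numbers of such libraries, from 0 of 8 in control male ASC2 to 6 of 8 in castrated male ASC1, and their part in the group differences beyond the values without them given above was not tested.

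Genes that make, process and bind collagen were taken from fixed lists. Of 19 tested biosynthesis genes (prolyl and lysyl hydroxylases, chaperones and others), 6 were lower in ASC2 than in ASC1 in control males and 0 higher, where 5.3% of all genes were lower. In control females 9 were lower and 0 higher (2.58% of all genes lower), and in castrated males 9 were lower and 0 higher (4.62% of all genes lower). Their median log2 fold changes were -0.41, -0.61 and -0.57. P4hb, the shared subunit of prolyl 4-hydroxylase, was lower in all 3 comparisons, by -0.67 ± 0.16, -0.72 ± 0.16 and -0.57 ± 0.16, and P3h1, a prolyl 3-hydroxylase, by -1.04 ± 0.27, -1.08 ± 0.27 and -0.91 ± 0.26. Plod2, the lysyl hydroxylase of collagen telopeptides, was lower in control males by -2.09 ± 0.73 and in castrated males by -2.91 ± 0.63. In ovariectomized females 7 were higher and 3 lower in ASC2, where 22.5% of all genes were higher and 12.9% lower. That comparison rests on the ovariectomized ASC1 libraries that stand apart. Between castrated and control males 1 of the 19 was higher in ASC1, Plod2 at 2.13 ± 0.62 (edgeR adjusted p = 0.0464), and 0 were called in ASC2. Over all genes 1.06% were higher in ASC1, and 6.96% were called in ASC2.

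Of 11 tested genes for processing and cross-linking, Lox, the lysyl oxidase, was lower in ASC2 in control males (-1.14 ± 0.34) and castrated males (-1.59 ± 0.34). Pcolce2, an enhancer of procollagen cleavage, was higher in control male ASC2 (1.22 ± 0.37). In control females Loxl4 (-1.48 ± 0.39) and Adamts2, the procollagen N-proteinase (-0.92 ± 0.30), were lower. In castrated males 3 of the 11 were lower. Over all genes 5.3%, 2.58% and 4.62% were lower in control males, control females and castrated males, and 6.88% higher in control males. Between castrated and control males 0 of the 11 were called in either population, against 2.36% of all genes in ASC1 and 6.96% in ASC2. Of 8 tested collagen receptors, Ddr2, a receptor tyrosine kinase for fibrillar collagen, was higher in ASC2 in control males, control females and castrated males by 0.76 ± 0.17, 0.60 ± 0.16 and 0.63 ± 0.16, the single receptor called higher in each, where 6.88%, 3.54% and 4.47% of all genes were higher. In castrated males Ddr1 (-1.59 ± 0.45) and the integrin chain Itgb1 (-0.58 ± 0.15) were lower. Ddr2 was lower in ovariectomized than in control female ASC2, by -0.75 ± 0.16 (edgeR adjusted p = 0.00463).

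Of 10 partners of collagen IV in the basement membrane, 1 was higher and 3 lower in castrated than in control male ASC2, where 2.65% of all genes were higher and 4.32% lower. Nid1, which joins laminin to collagen IV, was lower by -0.68 ± 0.14, Lama2, a laminin chain, by -0.84 ± 0.25 and Agrn, a heparan sulfate proteoglycan, by -0.94 ± 0.30, while Lama5 was higher by 1.76 ± 0.56 (edgeR adjusted p = 0.000738, 0.0274, 0.0403 and 0.0435). Lama2 was also lower in ovariectomized than in control female ASC2, by -1.25 ± 0.25 (edgeR adjusted p = 0.00198). In the same castration comparison Col4a1 averaged 596 ± 170 CPM in control and 602 ± 225 CPM in castrated male ASC2 and was not called.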

How the data were processed

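The data were 1 table of raw counts for 58 Smart-seq3 bulk libraries. Per the labels and the study's methods, the authors trimmed adapters (NGmerge 0.3), checked alignments (STAR 2.7.10a) and quantified reads with and without molecular identifiers with Salmon 1.9.0 on Gencode vM32 (GRCm39). A library needed 8500 detected genes to be kept. The deposited values are expected counts (15.0% of values above 0 were not whole) and were rounded. Replicates were not pooled.

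The groups follow the labels. Symbols and transcript lengths came from Gencode vM21. Genes reaching 5 reads in over 3 of the libraries were fitted with edgeR 4.0.16 (R 4.3.3, TMM library sizes, 1 coefficient per group over all 58 libraries), tested by quasi-likelihood, and p-values were adjusted by Benjamini-Hochberg over all 12464 genes. CPM used TMM library sizes. Floors were 3 reads over a group and intervals 95% exact; both cover counting error only. The steps were tested on simulated data. DESeq2 1.42.0, RLE size factors, no filter, only the groups compared, a replicate block and left-out libraries were alternatives; summaries and plots used Python 3.11.15.

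The collagen genes and gene lists were chosen with earlier results of these data known. Genes described with values were a fixed panel of 14 chains and, for each comparison, up to 10 called chains with the largest fold change and a mean of at least 20 CPM in 1 of the groups. Other chains were named after their values were seen. No pair of libraries was alike within sampling noise.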

Additional observations from a re-analysis of the deposited data

Results flagged for a closer look

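Within groups of 7 or 8 libraries, the highest and lowest library of each of 20 chains was compared with the rest of its group by Dixon's criterion on log2(CPM + 1). This gave 18 outlying values in 140 sets, where chance gives about 1 in 20. Of these, 11 belong to castrated male ASC2 library K and control female ASC2 library E.

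Castrated male ASC2 library K was lowest for 6 chains. It held Col5a1 at 30.5 CPM against 132 to 299 CPM in the other 7 libraries, Col5a2 at 171 against 726 to 1270, and Col5a3 at 31.9 against 89.9 to 176. Its basement membrane chains were low too, with Col4a1 at 133 against 540 to 916 CPM and Col4a2 at 75.5 against 317 to 563, and Col15a1 stood at 1.45 against 71.8 to 436 CPM. Control female ASC2 library E was lowest for 5 chains. These were Col6a2 at 849 CPM against 1401 to 2059, Col4a1 at 199.6 against 515 to 658, Col4a2 at 101.4 against 311 to 615, Col12a1 at 7.92 against 44.0 to 190, and Col15a1 at 17.4 against 70.4 to 167. The total counts of K and E, 730573 and 738117 reads, were above the median of all libraries. Their proliferation markers summed to 91.4 and 116 CPM, the lowest of their groups. The part of this in their collagen values was not tested.

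Castrated male ASC1 library P, with 235103 reads, was lowest for Col5a1 at 240 CPM against 312 to 346 and highest for Col14a1 at 35.9 CPM against 8.94 to 15.8. Control female ASC1 library A, with 139824 reads, was highest for Col12a1 at 236 CPM against 72.1 to 120. In control female ASC1 library G, Col18a1 was 125 CPM against 63.3 to 87.6. In control male ASC2, library A was lowest for Col1a1 at 497 CPM against 1548 to 2459, library D for Col28a1 at 4.46 CPM against 12 to 23.6, and library C for Col4a4 at 5.49 CPM against 11.3 to 17.8.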

How the results depend on the processing

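The numbers of called chains are given here where they left the range within 1.5 times the reported number. The shares called over all genes under each setting are not given beside them. A lower or higher number is thus not shown to be particular to collagen chains. The reported numbers were 5, 7 and 7 for ASC2 against ASC1 in control males, control females and castrated males, 0 and 1 for male against female in ASC1 and ASC2, 1 and 4 for castration and 2 for ovariectomy in ASC2. Without libraries holding both Y-linked and Xist reads they were 2, 1 and 4 for the populations, 2 for castration in ASC2 and 0 for ovariectomy in ASC2. Without libraries whose sex chromosome reads went against or mixed the label they were 3 and 1 for the control populations, 3 for sex in ASC2, 2 for castration in ASC2 and 0 for ovariectomy in ASC2. This setting kept 1 castrated ASC1 library, so comparisons with that group have no value there. Under it Col28a1 (1.03, ASC2 against ASC1 in control females) and Col18a1 (0.11, ovariectomy in ASC2) changed direction, neither called. It kept 2 control female ASC2 libraries, both with at least 3 Tcf21 reads, and 3 control female ASC1 libraries with fewer. There it cannot be told apart from the Tcf21 split. Without libraries with at least 3 Tcf21 reads the numbers were 2, 1 and 1 for the populations, 0 and 2 for castration in ASC1 and ASC2 and 1 for ovariectomy in ASC2.

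With no count filter they were 2 and 2 for sex, 3 for castration in ASC1, 4 for ovariectomy in ASC2, 1 for castration between populations and 3 for castration against ovariectomy. With only the groups compared they were 1 and 0 for sex, 4 and 1 for castration and 1 for ovariectomy in ASC2. RLE size factors gave 0 for sex and 1 for ovariectomy in ASC2, and DESeq2 gave 1 for castration between populations. Without castrated male ASC2 library K and control female ASC2 library E they were 2 for sex in ASC2, 2 and 2 for castration and 1 for ovariectomy in ASC2. Without control male ASC2 replicate A or D they were 0 to 1 for sex and 2 to 5 for castration in ASC2, and 0 to 1 for castration between populations.

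Control groups share plate letters A to H, and castrated and ovariectomized groups share I to P, which the labels do not explain. No letter occurs in both sets, so no letter block could be fitted for castration or ovariectomy. The deviations of same-lettered libraries had median correlations from -0.02 to 0.18, not every pair was above 0.1 in any comparison (5 of 7 at most, for sex in ASC1), and at most 4 of 7 libraries correlated best with their own letter. With the letter as a replicate block, 4 and 3 chains were called for sex in ASC1 and ASC2, and 4, 7, 8 and 15 for the 4 population comparisons. Of 61 calls of a chain, 30 were kept under every alternative that gave a value. These were 24 of the 34 in comparisons with ovariectomized ASC1 and 6 of the other 27. The 6 were Col14a1 in 3 comparisons, Col8a2 in 2, and Col4a4. Col8a2 had values under 6 and 5 alternatives, against 9 for Col14a1 in castrated males. Its castrated ASC1 reads all lay in libraries with at least 3 Tcf21 reads, so the setting without these gave it no value. Leaving out single libraries was run for the 3 ovariectomized ASC1 libraries and control male ASC2 libraries A and D. Sex label mixing, K, E and the Tcf21 settings, and libraries A and D, were chosen after seeing the data. The causes of these changes were not tested. At these totals a chain under 3 reads over a group could not be told from 0.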
